A study of Mus musculus with 6 samples.

Results

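The CXC chemokines described here are Cxcl1, Cxcl2, Cxcl3, Cxcl9, Cxcl10, Cxcl12, Cxcl14 and Cxcl16, 8 of the 33456 genes counted, chosen by symbol. Single cells came from visceral (epididymal) fat of mice in the high-fat diet group, labelled HFD (3 samples), and in the group labelled control (3 samples). In both groups the fat was digested with collagenase and the cells were sorted for CD45, found on leukocytes, and CD11b, the alpha M integrin subunit of monocytes, macrophages and neutrophils. The question was how these chemokines differ with diet and between the myeloid cells and the fibroblasts that passed this sort. Strain, sex, age and time on the diet are not given in the sources used here, and the stroma that did not pass the sort was not measured.

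Many cell barcodes were listed in more than 1 sample. The 5511 entries came from 2195 barcodes, of which 1082 (49.3%) stood in several samples, and each was counted here only in the sample where it had most unique molecular identifiers (UMIs, which mark single RNA molecules). This left 2114 cells, 1128 from HFD and 986 from control samples, with 3587086 to 5708323 UMIs per HFD sample and 1997647 to 3874349 per control sample. A cell with at least 6 UMIs of the collagen genes Col3a1 and Col1a2 was called a fibroblast. A cell below that level with at least 6 UMIs of Tyrobp, Fcer1g and Lyz2, and under 3 of the lymphocyte genes, was called myeloid. There were 214 fibroblasts (75, 52 and 68 in HFD 1 to 3, and 8, 2 and 9 in control 1 to 3) and 1768 myeloid cells (865 HFD and 903 control). Fibroblasts were 17.4% ± 0.708 of the cells of an HFD sample and 1.83% ± 0.968 of those of a control sample (SD, n = 3 each). These shares depended on how shared barcodes were treated. With every entry as deposited they were 9.90%, 7.98% and 9.44% in HFD 1 to 3, and 1.64%, 2.03% and 2.06% in control 1 to 3. Control 2, with 2 fibroblasts, was left out of every fibroblast test.

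The classes carried their defining genes. Col1a1 had a UMI in 95.3% of fibroblasts and 6.79% of myeloid cells, and the platelet-derived growth factor receptor gene Pdgfra in 81.3% and 1.98%. Ptprc, which encodes CD45, had a UMI in 13.1% of fibroblasts and 71.8% of myeloid cells, and Itgam, which encodes CD11b, in 7.48% and 57.2%. RNA of each class was present at a low level in the other. The proteoglycan gene Dcn stood at 19107 CPM (UMIs scaled to a common library total) in fibroblasts and 195 CPM in myeloid cells, and the lysozyme gene Lyz2 at 1265 CPM in fibroblasts and 14235 CPM in myeloid cells. Of the fibroblasts, 91 of 195 in HFD and 16 of 19 in control samples held at least 3 UMIs of Tyrobp and Fcer1g.

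CXC chemokines are small secreted proteins that draw leukocytes along a gradient. Cxcl1, Cxcl2 and Cxcl3 act on Cxcr2 and call neutrophils, and they are induced through the transcription factor NF-kB. Cxcl9 and Cxcl10 act on Cxcr3 of T and NK cells and are induced by interferons. Cxcl12 is made by stromal cells, signals through Cxcr4, which holds haematopoietic cells in tissues, and is scavenged by Ackr3. Cxcl16 is made as a membrane protein, is released by the protease Adam10 and binds Cxcr6, while the receptor of Cxcl14 is less settled.

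Promoters of 7 of the 8 genes were found in RefSeq (GRCm38.p6), and Cxcl16 had no entry. Those shown are the 4 members, all on chromosome 5, with a match to the kappaB motif, to which NF-kB binds (GGGA, any 2 bases, T, any base, CC). The window is the 120 bases before the annotated start of Cxcl1 (chr5:90891125-90891244, plus strand), Cxcl2 (chr5:90903779-90903898, plus strand) and Cxcl3 (chr5:90785981-90786100, plus strand), and the 220 bases before that of Cxcl10 (chr5:92348890-92349109, minus strand). Capitals mark the kappaB matches and, in Cxcl10, the first run, which matches the core of the interferon-stimulated response element (GAAA, any 2 bases, GAAA).
Cxcl1: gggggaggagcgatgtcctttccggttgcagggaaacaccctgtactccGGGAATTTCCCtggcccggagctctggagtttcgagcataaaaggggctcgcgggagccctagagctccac
Cxcl2: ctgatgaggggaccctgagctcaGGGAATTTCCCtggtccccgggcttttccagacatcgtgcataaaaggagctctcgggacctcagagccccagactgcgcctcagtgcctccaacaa
Cxcl3: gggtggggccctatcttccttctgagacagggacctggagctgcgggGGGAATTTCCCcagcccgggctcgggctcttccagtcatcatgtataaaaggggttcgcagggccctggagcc
Cxcl10: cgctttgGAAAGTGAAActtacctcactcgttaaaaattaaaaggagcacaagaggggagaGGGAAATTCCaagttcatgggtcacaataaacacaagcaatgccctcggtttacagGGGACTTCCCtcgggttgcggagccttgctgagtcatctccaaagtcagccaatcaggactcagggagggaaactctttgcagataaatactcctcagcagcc

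The same 11 letters, GGGAATTTCCC, stood in the promoters of Cxcl1, Cxcl2 and Cxcl3, where a match on each strand overlaps the other. They began 71 bases before the start in Cxcl1, 97 in Cxcl2 and 73 in Cxcl3. Over both strands of the 250 bases before the start, the kappaB letters matched in 4 of the 7 members and in 3.23% of 27025 promoters. The response element core matched in Cxcl10 and Cxcl14 and in 3.04% of promoters. The AP-1 letters TGANTCA matched in Cxcl10 and in 6.87% of promoters. A match describes the letters and does not show that a factor binds there.

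Levels of the members differed between fibroblasts and myeloid cells. In fibroblasts, against myeloid cells of the same samples, Cxcl12, Cxcl14 and Cxcl1 were higher and Cxcl2, Cxcl9, Cxcl10 and Cxcl16 were lower, by edgeR's quasi-likelihood test with Benjamini-Hochberg adjustment and a threshold of 0.05 (3 HFD and 2 control samples, sample as a block). Of the 7 members tested 3 were called higher and 4 lower, where 45.5% of the 8694 genes tested were called, 22.6% higher and 22.9% lower. The median log2 difference was -1.53 over the members and -0.03 over the genes. Cxcl3, with 1 UMI in all fibroblasts together, was too low to be tested. With every entry as deposited the differences were log2 0.83 for Cxcl1, 1.502 for Cxcl14, -4.47 for Cxcl2, -1.56 for Cxcl9, -2.62 for Cxcl10 and -1.62 for Cxcl16. With barcodes of 1 sample only, 3 samples were left for this comparison. The differences were then log2 0.76 for Cxcl1, 2.89 for Cxcl14, -4.35 for Cxcl2 and -1.94 for Cxcl16, and Cxcl9 and Cxcl10 are not given.

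The UMIs of most members lay in myeloid cells in both diets. Myeloid cells held 47820 of the 50746 Cxcl2 UMIs of HFD samples (94.2%) and 28341 of the 29620 of control samples (95.7%). For Cxcl10 they held 90.8% of the HFD and 93.8% of the control UMIs, and for Cxcl16 90.5% and 93.6%. Cxcl12 was the exception in HFD samples. Fibroblasts held 771 of 937 HFD Cxcl12 UMIs (82.3%, exact 95% interval 79.7 to 84.7%) and 63 of 314 control UMIs (20.1%, 15.8 to 24.9%). Such intervals cover counting error only, and the samples of a diet spread more widely than they do. By sample, the fibroblast share of Cxcl12 UMIs ran from 71.5% (HFD 3) to 89.7% (HFD 2). In control samples it ran from 8.82% (control 3) to 30.6% (control 1), so the diets did not overlap.

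**Figure D1:**
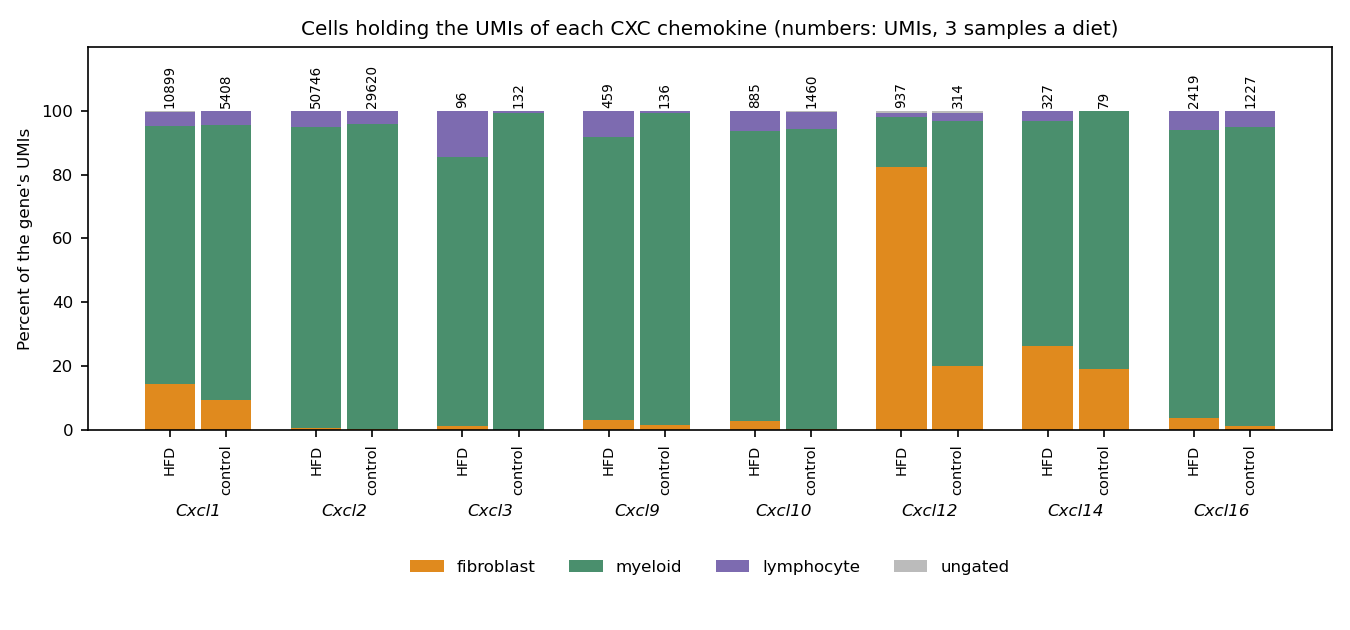
Percent of each gene's UMIs (y axis) that lay in fibroblasts, myeloid cells, lymphocytes and ungated cells, for the HFD and the control samples summed (3 samples a diet). Fibroblasts held 82.3% of the Cxcl12 UMIs of HFD samples and 20.1% of those of control samples, while myeloid cells held most UMIs of the other members in both diets.

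Cxcl12, the stromal ligand of Cxcr4, was lower in HFD than in control myeloid cells and higher in HFD than in control samples as a whole. In fibroblasts its level was 565, 674 and 409 CPM in HFD 1 to 3, against 475, 620.5 and 138 CPM in control 1 to 3. Myeloid cells had 11.8, 10.4 and 16.4 CPM in HFD 1 to 3, against 28.3, 29.6 and 35.4 CPM in control 1 to 3. The diets overlapped in fibroblasts, whereas in myeloid cells all 3 HFD samples lay below all 3 control samples. Over all kept cells the order was the opposite, with 65.5, 86.4 and 55.7 CPM in HFD 1 to 3, all above the 37.9, 32.5 and 37.6 CPM of control 1 to 3.

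Both diet differences passed the test. Cxcl12 rose over all kept cells in HFD samples (log2 0.78 ± 0.16 SE, edgeR adjusted p = 0.0066) and fell in myeloid cells (log2 -1.36 ± 0.19, edgeR adjusted p = 0.00098). Over all kept cells a change in the number of fibroblasts and a change in RNA per cell cannot be told apart. In fibroblasts the difference of log2 0.76 ± 0.35 was not called (edgeR adjusted p = 0.44), but it was called without control 1, at log2 2.13 (edgeR adjusted p = 0.00012), where control 3 alone stood for control. Cxcl12 was 4.53 ± 0.34 higher in fibroblasts than in myeloid cells on the log2 scale (edgeR adjusted p = 5.2e-11), with ratios of 47.7, 64.7 and 25.0 in HFD 1 to 3 and 16.8, 20.9 and 3.90 in control 1 to 3. The class difference was log2 5.25 within the HFD samples and 2.91 within the 2 control samples. These calls held with every entry as deposited (log2 0.78 over all kept cells, -0.81 in myeloid cells and 4.46 between classes) and with barcodes of 1 sample only (1.84, -1.12 and 4.46). In the latter setting 3 samples were left for the class difference.

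The diet difference itself differed between the classes. For Cxcl12 the difference in fibroblasts minus that in myeloid cells was log2 2.28 ± 0.29 (edgeR adjusted p = 7.2e-12), where 2.6% of the 10514 genes tested were called, 1.84% higher and 0.761% lower. Of the 8 members, Cxcl12 was called higher and Cxcl1 lower. The value was 3.66 without control 1, 1.61 without control 3 and 1.38 with every entry as deposited, and the call held in each. Without TMM normalization the median of all genes moved from 0.22 to -0.06 and the split of calls turned to 72 higher and 142 lower (193 and 80 with TMM). The edgeR fit drew all genes to 1 common spread here. The 5 log2 ratios were 5.41 ± 0.70 in 3 HFD samples and 3.02 ± 1.49 in 2 control samples (SD). An exact permutation test of these ratios gave a two-sided p of 0.2, the smallest it can give here, as it doubles the one-sided p.

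**Figure D2:**
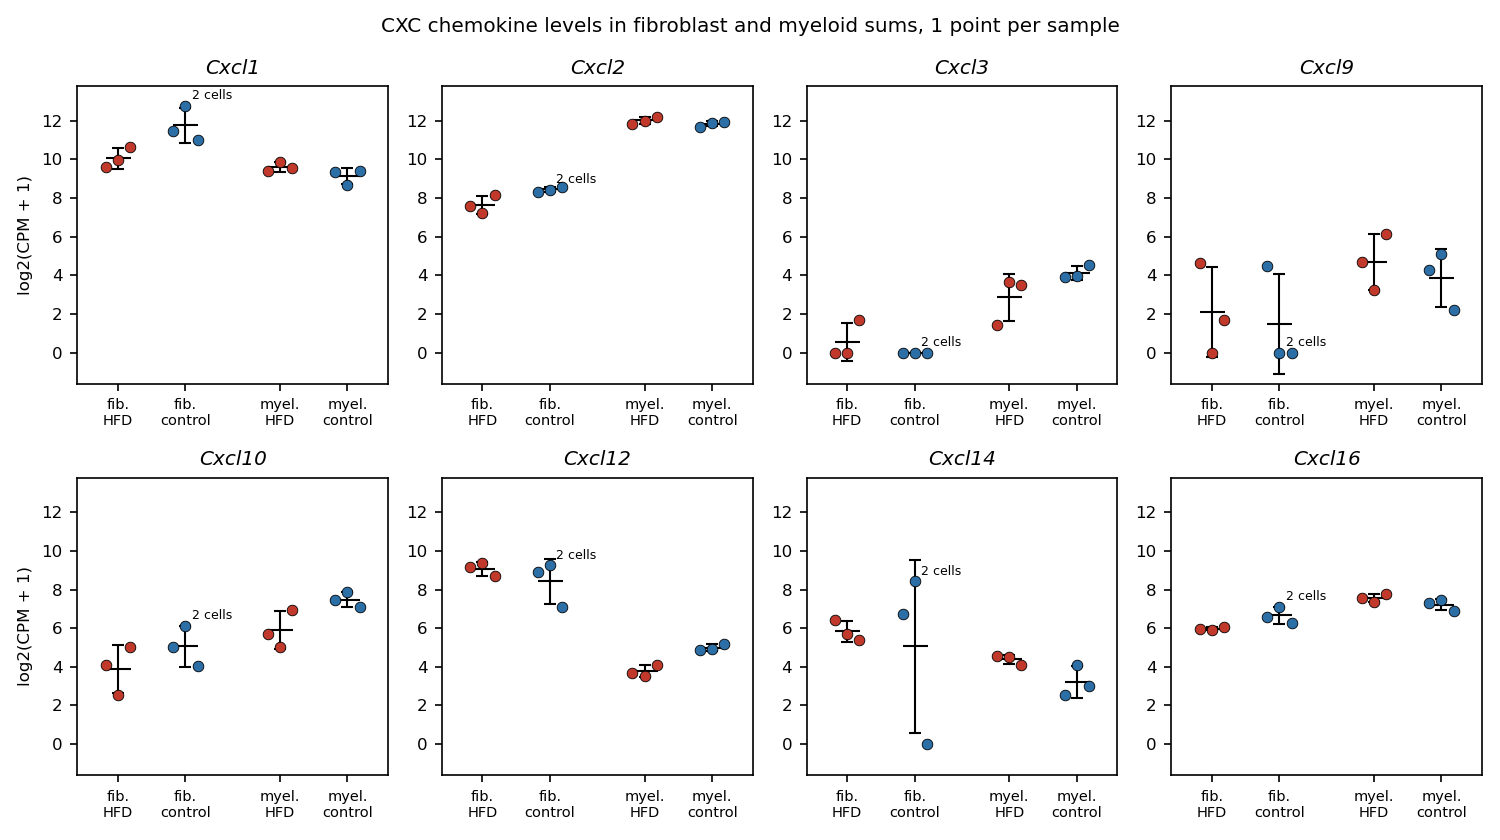
Level of each member as log2(CPM + 1) (y axis) in fibroblast and myeloid sums, 1 point per sample, with the mean and SD on that scale. Cxcl3, Cxcl10 and Cxcl12 lay lower in all 3 HFD than in all 3 control myeloid sums. Cxcl1, Cxcl2 and Cxcl16 lay lower in all HFD than in all control fibroblast sums, where "2 cells" marks the sample with 2 fibroblasts. The share of all genes separated in this way was not counted.

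Within control myeloid cells most Cxcl12 lay in 3 clusters. Of the 241 control UMIs, 42.3% lay in cluster 2 and 21.2% in cluster 11, both led by Cd209f and named resident perivascular macrophage-like, and 15.8% in cluster 7, led by the resistin-like gene Retnla. In cluster 11, which expressed the hyaluronan receptor Lyve1, the level was 166, 178 and 182 CPM in control 1 to 3, and in cluster 2 it was 57.2, 89.3 and 95.9 CPM. No HFD sample had 10 cells of either cluster. They were 1.23% ± 0.838 (cluster 2) and 1.67% ± 0.438 (cluster 11) of HFD myeloid cells, against 23.6% ± 5.54 and 6.14% ± 0.438 of control ones (SD, n = 3 each). Of the 149 HFD UMIs, 31.5% lay in cluster 1, 19.5% in the lipid-associated macrophage-like cluster 4 and 29.5% in cells that fell below the collagen gate but clustered with fibroblasts.

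Fibroblast RNA in the myeloid sums was set beside these values. The 7 fibroblast markers, all with UMIs in each HFD sample, summed to 253, 373 and 414 CPM in myeloid cells of HFD 1 to 3, against 221, 54.4 and 81.4 CPM in those of control 1 to 3. Their part in the Cxcl12 difference was not tested. Per 100 UMIs of Dcn, fibroblasts had 3.05, 3.72 and 2.26 Cxcl12 UMIs in HFD 1 to 3 and 1.71, 2.08 and 0.619 in control 1 to 3. Myeloid cells had 6.28, 3.97 and 5.17 in HFD 1 to 3, and 14.8, 66.3 and 55.2 in control 1 to 3. Control cells of cluster 11 held 51 Cxcl12 and 33 Dcn UMIs, 155 per 100, against 1.51 per 100 in the control cells of fibroblast-like cluster 3. The myeloid ratio lay above the fibroblast ratio of the same sample in each of the 6 samples.

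**Figure D3:**
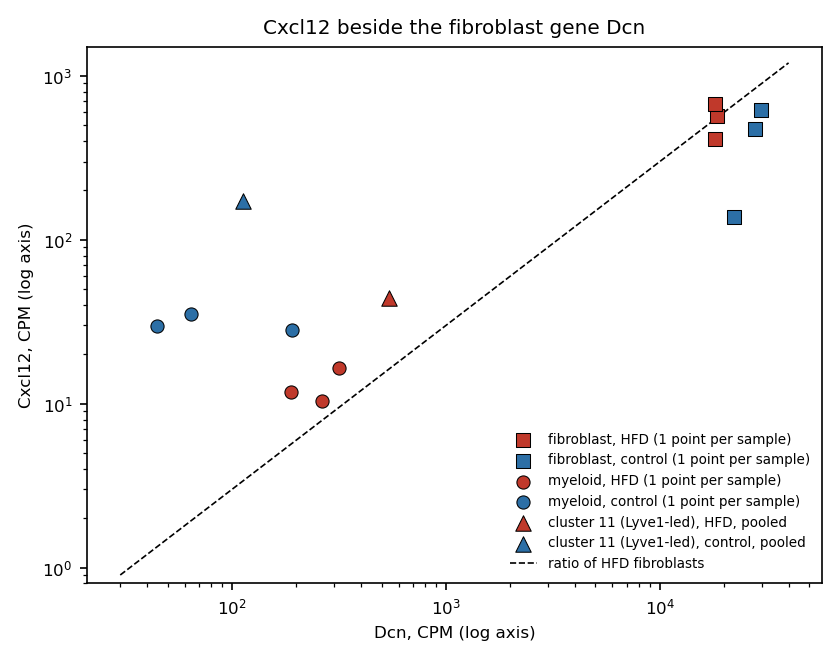
Cxcl12 (y axis, CPM, log) against the fibroblast gene Dcn (x axis, CPM, log), 1 point per sample for fibroblasts and myeloid cells and 1 pooled point per diet for cluster 11, with the ratio of HFD fibroblasts as a dashed line. Control myeloid cells and control cells of cluster 11 lie above the line, with 14.8 to 66.3 and 155 Cxcl12 UMIs per 100 Dcn UMIs.

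The share of cells with a Cxcl12 UMI gave the same order. After each cell was thinned to 2000 UMIs, 2.73% ± 0.638 of HFD and 7.78% ± 2.04 of control myeloid cells had one (SD, n = 3 each; 33 shallower control cells left out), and 10.4% and 19.3% without thinning. In fibroblasts the thinned share was 55.6% ± 6.14 in HFD and 32.9% ± 19.9 in control samples. Strict lymphocytes, those with under 3 UMIs of Tyrobp and Fcer1g, taken as cells that should lack these chemokines, had 1 Cxcl12 UMI in 12 HFD cells and 0 in 17 control cells (median depths 3414.5 and 3136 UMIs). The 0 allows a share of up to 17.6%, so these few cells set no useful background for the myeloid shares.

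Cxcl1, a neutrophil-attracting ligand, was carried by fibroblasts and by several macrophage clusters. Fibroblasts had 769.8, 989 and 1619.55 CPM in HFD 1 to 3, against 2840.2, 7032 and 2083 CPM in control 1 to 3, where control 2 rests on 2 cells. Each HFD value lay below each control value, as was also so for Cxcl2 and Cxcl16 in fibroblasts. Myeloid cells had 671, 937 and 755 CPM in HFD 1 to 3, against 643, 405 and 677 CPM in control 1 to 3, and the diets overlapped. The myeloid difference of log2 0.35 ± 0.19 was not called (edgeR adjusted p = 0.20), and was called at log2 0.86 with barcodes of 1 sample only (edgeR adjusted p = 0.021).

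Cxcl1 was higher in fibroblasts than in myeloid cells (log2 0.85 ± 0.21, edgeR adjusted p = 0.0016). The ratio was 1.15, 1.06 and 2.15 in HFD 1 to 3 and 4.42, 17.4 and 3.08 in control 1 to 3. With the fibroblasts that held at least 3 UMIs of Tyrobp and Fcer1g left out, 3 HFD samples and no control sample remained. The difference was then log2 0.25, not called (edgeR adjusted p = 0.084). Pooled HFD fibroblasts stood at 1034 CPM under 3 such UMIs and 1156 CPM with 3 or more. Within the 2 control samples, with no fibroblasts left out, the class difference was log2 1.53 (edgeR adjusted p = 1.9e-10). In the strict lymphocytes Cxcl1 stood at 40.9 CPM in HFD and 106 CPM in control samples, below every fibroblast value. These levels rest on 2 UMIs in 12 HFD cells and 6 UMIs in 17 control cells, too few to set a background.

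The diet difference in fibroblasts was log2 -1.12 ± 0.26 and was not called (edgeR adjusted p = 0.061). It was called without HFD 3 (log2 -1.499, edgeR adjusted p = 0.0025), without control 3 (-1.32, edgeR adjusted p = 2.3e-05) and with the 2 fibroblasts of control 2 added (-1.57, edgeR adjusted p = 0.010). None of the 6 members tested in fibroblasts was called, where 0.839% of 5362 genes were called by edgeR, 588 genes had an unadjusted p under 0.05 and DESeq2 called 62. The members' median was log2 -0.47 and that of the genes 0.03. The difference in fibroblasts minus that in myeloid cells was log2 -1.15 ± 0.20 for Cxcl1 (edgeR adjusted p = 1.3e-06). It was not called by DESeq2 (adjusted p = 0.066) nor without control 1 (log2 -0.90). The exact permutation test over 5 samples gave a two-sided p of 0.2, the smallest it can give here.

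Cxcl1 was unevenly spread over cells. The 74 HFD myeloid cells (of 865) and the 42 control ones (of 903) with most Cxcl1 held 50% of its UMIs, with up to 142 UMIs in an HFD and 237 in a control cell. Of the HFD myeloid UMIs 46.0% lay in the lipid-associated macrophage-like cluster 4, where the level was 1287, 1571 and 1189 CPM in HFD 1 to 3. The other lipid-associated macrophage-like cluster, 8, led by the elastase gene Mmp12, stood at 196 CPM. In control samples the serous cavity macrophage-like cluster 14 held 18.4% of the myeloid UMIs, at 1890.4 CPM in control 1 and 987 CPM in control 2.

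Cxcl2, the macrophage-made ligand of Cxcr2, belonged to the myeloid cells and did not differ detectably with diet. Myeloid cells had 3711, 4125 and 4759 CPM in HFD 1 to 3, against 3318, 3846 and 3916 CPM in control 1 to 3, with overlapping ranges. The difference was log2 0.08 ± 0.11 (edgeR adjusted p = 0.59). With barcodes of 1 sample only it was called, at log2 0.75 (edgeR adjusted p = 0.0010). The thinned share of myeloid cells with a UMI was 76.7% ± 5.28 in HFD and 76.6% ± 1.21 in control samples.

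Fibroblasts had 188, 150.3 and 285 Cxcl2 CPM in HFD 1 to 3, against 317, 345 and 383 CPM in control 1 to 3, log2 -4.18 ± 0.20 below myeloid cells (edgeR adjusted p = 9.3e-15). These were 5.08%, 3.64% and 5.99% of the myeloid level in HFD 1 to 3 and 9.55%, 8.96% and 9.78% in control 1 to 3. The summed macrophage markers of fibroblasts were 9.18%, 7.27% and 8.50% of their myeloid level in HFD 1 to 3 and 22.6%, 13.4% and 11.3% in control 1 to 3. In every sample the Cxcl2 percentage was below that of the macrophage markers. The strict lymphocytes had 266 Cxcl2 CPM in HFD and 390 CPM in control samples. Which cells the Cxcl2 UMIs of fibroblasts came from was not tested.

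Among clusters, Cxcl2 stood at 9736 CPM in cluster 17, a group of 37 cells led by Mmp19 and H2-M2, and at 6204 CPM in the classical monocyte-like cluster 6. Clusters 1 and 4 held 38.6% and 35.9% of the HFD myeloid UMIs. No control cluster held more than 16.8%, the share of cluster 5. Per sample, cluster 6 had 6921, 7598 and 5161 CPM in HFD 1 to 3 and 4539.5, 6646 and 7556 CPM in control 1 to 3, which overlapped. Macrophage clusters also held low levels, with 697 CPM in cluster 8, 355 CPM in cluster 11 and 353 CPM in cluster 10, led by Ms4a7.

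Cxcl3, also a Cxcr2 ligand, was found in few cells. Myeloid cells had 1.69, 11.4 and 10.3 CPM in HFD 1 to 3, against 13.9, 14.6 and 22.4 CPM in control 1 to 3. Each HFD value lay below each control value, but the difference of log2 -1.30 ± 0.50 was not called (edgeR adjusted p = 0.078). It passed in DESeq2 (adjusted p = 0.047) and in edgeR with no filter on low counts (adjusted p = 0.0023). The values rest on 81 HFD and 131 control UMIs, and 2 of 865 HFD and 4 of 903 control myeloid cells held 50% of them. Cluster 17 again had a high pooled level, at 118 CPM, against 45.5 CPM in the classical monocyte-like cluster 6. That level came from control cells, with 40 of the 131 control myeloid UMIs and 1 of the 81 HFD ones. The cycling cell-like cluster 16 held 32 of the HFD UMIs (39.5%), and 1 cell there held 27 of these. Control fibroblasts had 0 UMIs in 19 cells, which allows up to 17.2 CPM.

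Of the 61 myeloid cells with a Cxcl3 UMI, 86.9% also had a Cxcl1 UMI, against 58.2% of the 1707 without one. The cells with Cxcl3 were deeper, at a median of 13595 UMIs against 8977. Thinned to 2000 UMIs, 80.0% of 20 cells with Cxcl3 and 35.9% of those without had Cxcl1.

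Cxcl10, a Cxcr3 ligand, was lower in HFD myeloid cells. The level was 51.2, 31.9 and 123 CPM in HFD 1 to 3, against 177, 232 and 134 CPM in control 1 to 3. The groups did not overlap, with HFD 3 only just below control 3. Cxcl10 fell by 1.48 ± 0.42 on the log2 scale in myeloid cells (edgeR adjusted p = 0.025) and by 1.60 ± 0.42 over all kept cells (edgeR adjusted p = 0.018). The myeloid log2 value was -0.86 with every entry as deposited (edgeR adjusted p = 0.012) and -2.21 with barcodes of 1 sample only (edgeR adjusted p = 0.00015). Over all kept cells they were -0.98 and -2.38.

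This call depended on single libraries. In myeloid cells it was lost without HFD 1 (edgeR adjusted p = 0.096), without HFD 2 (0.059), without control 2 (0.080), in DESeq2 (0.065) and in edgeR's robust fit (0.15). Without HFD 3 the log2 difference was -2.21 (edgeR adjusted p = 0.0025). Over all kept cells the call was lost without HFD 1 (edgeR adjusted p = 0.078), without control 2 (0.056) and in the robust fit (0.12), and without HFD 3 the difference was log2 -2.30. Of the 8 members 1 was called higher and 2 lower in myeloid cells, where 30.5% of 9808 genes were called, 13.9% higher and 16.6% lower. Over all kept cells 2 were called higher and 1 lower, where 32.4% of 10450 genes were called, 15.2% higher and 17.2% lower. The members' median was log2 0.16 in myeloid cells and 0.20 over all kept cells, and that of the genes -0.02 in both. Without TMM normalization the medians of the genes moved to 0.08 and 0.13, and the split of calls turned to 1893 higher and 1299 lower in myeloid cells (1361 and 1630 with TMM) and 2322 and 1271 over all kept cells (1593 and 1796).

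**Figure D4:**
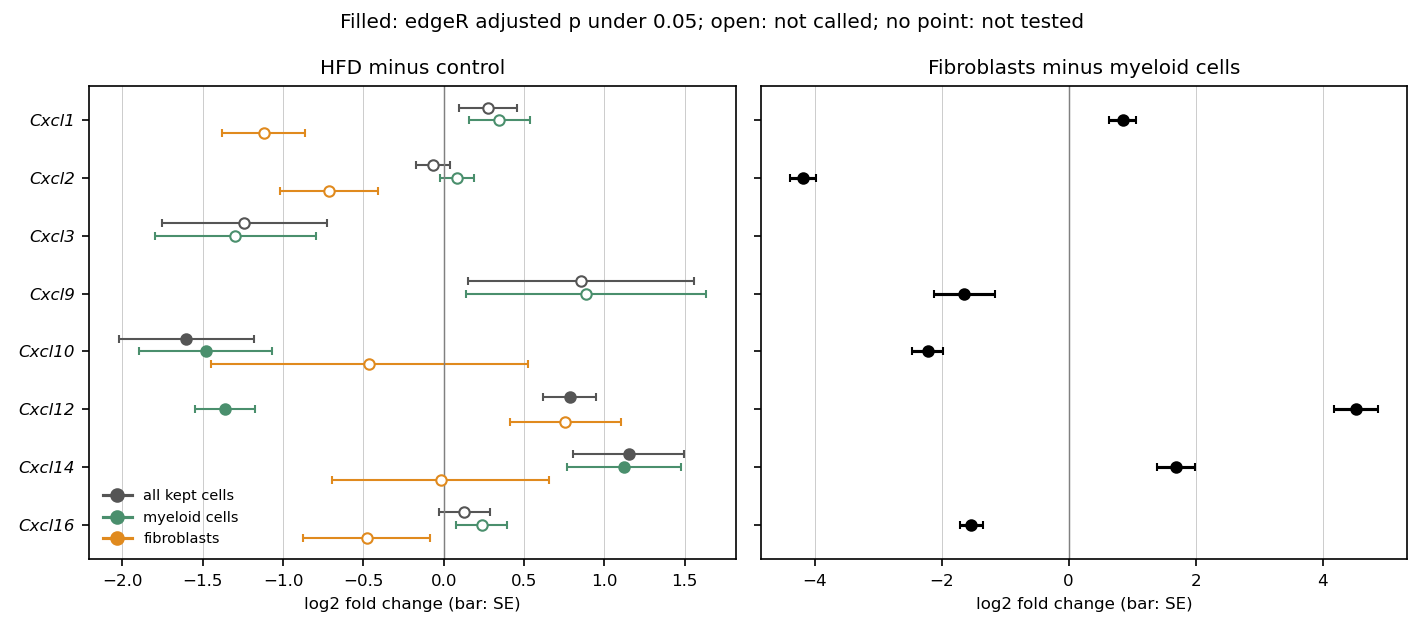
Log2 fold change with its SE (x axis) of each member (y axis) for HFD minus control in all kept cells, myeloid cells and fibroblasts (left) and for fibroblasts minus myeloid cells (right). Filled points passed edgeR's adjusted p of 0.05: Cxcl10 (-1.48), Cxcl12 (-1.36) and Cxcl14 (1.12) in myeloid cells, and no member in fibroblasts.

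The cells that held Cxcl10 differed between the diets. In HFD samples 61.8% of the 804 myeloid UMIs lay in the classical monocyte-like cluster 6, and 7 of 865 cells held 50% of them. In control samples 41.6% of 1370 UMIs lay in cluster 5, led by Ear2 and Lyz1, 16.9% in cluster 7 and 8.69% in cluster 6, and it took 41 of 903 cells to hold 50%. The level in cluster 6 was 613, 55.6 and 687 CPM in HFD 1 to 3, against 122, 245 and 173 CPM in control 1 to 3, so the diets overlapped within it. In cluster 5 it was 461, 496 and 292 CPM in control 1 to 3, and no HFD sample had 10 such cells. Cluster 5 was 1.74% ± 0.0202 of HFD and 16.8% ± 1.78 of control myeloid cells (SD, n = 3 each). The thinned share of myeloid cells with a Cxcl10 UMI was 4.91% ± 3.65 in HFD and 17.4% ± 0.996 in control samples.

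Cxcl10 was lower in fibroblasts than in myeloid cells (log2 -2.22 ± 0.25, edgeR adjusted p = 4.4e-08). Fibroblasts had 16.3, 4.85 and 31.7 CPM in HFD 1 to 3 and 31.7, 68.9 and 15.3 CPM in control 1 to 3, on 25 HFD and 5 control UMIs. The strict lymphocytes had 0 Cxcl10 UMIs in 12 HFD cells and 4 UMIs in 17 control cells, or 70.9 CPM. The 0 in HFD cells allows up to 61.4 CPM, too shallow a limit to compare with the fibroblast level.

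Cxcl9, the interferon-gamma-induced ligand of Cxcr3, varied from sample to sample more than with diet. Myeloid cells had 24.8, 8.40 and 70.3 CPM in HFD 1 to 3, against 18.3, 33.4 and 3.54 CPM in control 1 to 3. The diets overlapped and the difference of log2 0.89 ± 0.75 was not called (edgeR adjusted p = 0.40). In cluster 6, with 70.3% of the HFD myeloid UMIs, the level was 352, 0 and 409 CPM in HFD 1 to 3 and 18.3, 66.5 and 0 CPM in control 1 to 3. HFD 2 and control 3 thus had no Cxcl9 UMI in that cluster, which held 20 and 25 of their myeloid cells. HFD 2 had the lowest Cxcl10 there as well. In myeloid cells 50% of the UMIs lay in 6 HFD and 3 control cells.

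Cells with Cxcl9 often had Cxcl10. Thinned to 2000 UMIs, 41.9% of 43 myeloid cells with a Cxcl9 UMI and 10.4% of those without had a Cxcl10 UMI, and unthinned 45.0% of 109 and 22.8% of 1659. Between classes, Cxcl9 was lower in fibroblasts (log2 -1.64 ± 0.48, edgeR adjusted p = 0.0071), on 16 fibroblast UMIs, of which 13 came from HFD 1. That call was lost without HFD 3 (log2 -0.54, edgeR adjusted p = 0.43), within the 2 control samples (log2 -0.31, edgeR adjusted p = 0.92) and in edgeR's robust fit (adjusted p = 0.063), and without HFD 1 the difference was log2 -3.59 (edgeR adjusted p = 2.3e-05).

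Cxcl14 was higher in HFD myeloid cells. The level was 22.4, 21.5 and 16.13 CPM in HFD 1 to 3, against 4.72, 16.17 and 7.08 CPM in control 1 to 3, with HFD 3 just below control 2 and the diets overlapping there. Cxcl14 rose by log2 1.12 ± 0.35 (edgeR adjusted p = 0.039), and by log2 1.15 ± 0.34 over all kept cells (edgeR adjusted p = 0.031). In myeloid cells the call was lost without HFD 1 (edgeR adjusted p = 0.13), HFD 2 (0.10), HFD 3 (0.054), control 1 (0.11) or control 3 (0.084), and over all kept cells without HFD 1 (0.12), HFD 2 (0.088), control 1 (0.104) or control 3 (0.082). With every entry as deposited the myeloid value was log2 0.54 (edgeR adjusted p = 0.051). Over all kept cells it was log2 0.61 as deposited (edgeR adjusted p = 0.040) and log2 2.79 with barcodes of 1 sample only (edgeR adjusted p = 0.00063).

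Most HFD myeloid Cxcl14 lay in the lipid-associated macrophage-like clusters. Of 231 UMIs, 44.6% fell in cluster 4, led by the osteopontin gene Spp1, and 35.1% in cluster 8. Cluster 4 had 30.4, 35.1 and 31.4 CPM in HFD 1 to 3 and 12.05 CPM in control 3, the control sample with at least 10 such cells, and cluster 8 had 41.3, 57.0 and 33.3 CPM in HFD 1 to 3. These 2 clusters were 19.1% ± 0.422 and 14.2% ± 5.01 of HFD myeloid cells, against 1.57% ± 2.05 and 0.570% ± 0.661 of control ones (SD, n = 3 each). Per 100 Dcn UMIs there were 20.3 Cxcl14 UMIs in HFD cells of cluster 4 and 31.6 in those of cluster 8, against 0.335 in HFD fibroblasts. Of the 64 control UMIs 42.2% lay in cluster 6, at 30.5, 73.5 and 5.98 CPM in control 1 to 3.

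In fibroblasts Cxcl14 stood at 85.1, 50.9 and 40.7 CPM in HFD 1 to 3, and at 106, 345 and 0 CPM in control 1 to 3. It was higher than in myeloid cells (log2 1.69 ± 0.30, edgeR adjusted p = 4.3e-05) and did not differ detectably between diets (log2 -0.02 ± 0.68, edgeR adjusted p = 1.00). Few fibroblasts carried it. Of the 86 HFD UMIs 2 of 195 cells held 50%, and 1 cell had 39. The Pi16-led fibroblast-like cluster 18 had 0 Cxcl14 UMIs in 22 cells, which allows up to 19.1 CPM, and cluster 3 had 65.0 CPM.

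Cxcl16, the membrane-bound ligand of Cxcr6, did not pass the test for a diet difference in myeloid cells. The level was 189, 163 and 214 CPM in HFD 1 to 3, against 155, 175 and 118 CPM in control 1 to 3, with overlap. The difference of log2 0.24 ± 0.16 was not called (edgeR adjusted p = 0.29), and with barcodes of 1 sample only it was called at log2 0.88 (edgeR adjusted p = 0.0046). The thinned share of myeloid cells with a UMI was 31.3% ± 3.26 in HFD and 22.9% ± 2.79 in control samples, and 73.1% ± 1.42 and 48.5% ± 7.35 unthinned.

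Migratory dendritic cell-like cells stood out for Cxcl16. In cluster 15, led by the homing receptor gene Ccr7 and the actin-bundling gene Fscn1, all 39 cells had a UMI and the pooled level was 833 CPM. The classical monocyte-like cluster 6 followed with 322 CPM, at 405, 179 and 447 CPM in HFD 1 to 3 and 299, 238 and 144 CPM in control 1 to 3. HFD 2 was the lowest HFD sample there for Cxcl16, as for Cxcl9 and Cxcl10, but lay above control 3 for Cxcl16.

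Fibroblasts had 61.6, 58.2 and 65.6 Cxcl16 CPM in HFD 1 to 3, against 95.02, 138 and 76.6 CPM in control 1 to 3, on 87 and 16 UMIs. Cxcl16 was lower than in myeloid cells (log2 -1.53 ± 0.18, edgeR adjusted p = 1.5e-07), and within the 2 control samples this was not called (log2 -1.02, edgeR adjusted p = 0.084). Per 100 Lyz2 UMIs fibroblasts had 5.14, 5.31 and 5.45 in HFD 1 to 3 and 3.66, 8.70 and 5.88 in control 1 to 3, above the 1.30, 1.07 and 1.53 of HFD and the 0.970, 1.39 and 1.01 of control myeloid cells. HFD strict lymphocytes had 0 Cxcl16 UMIs, which allows up to 61.4 CPM.

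**Figure D5:**
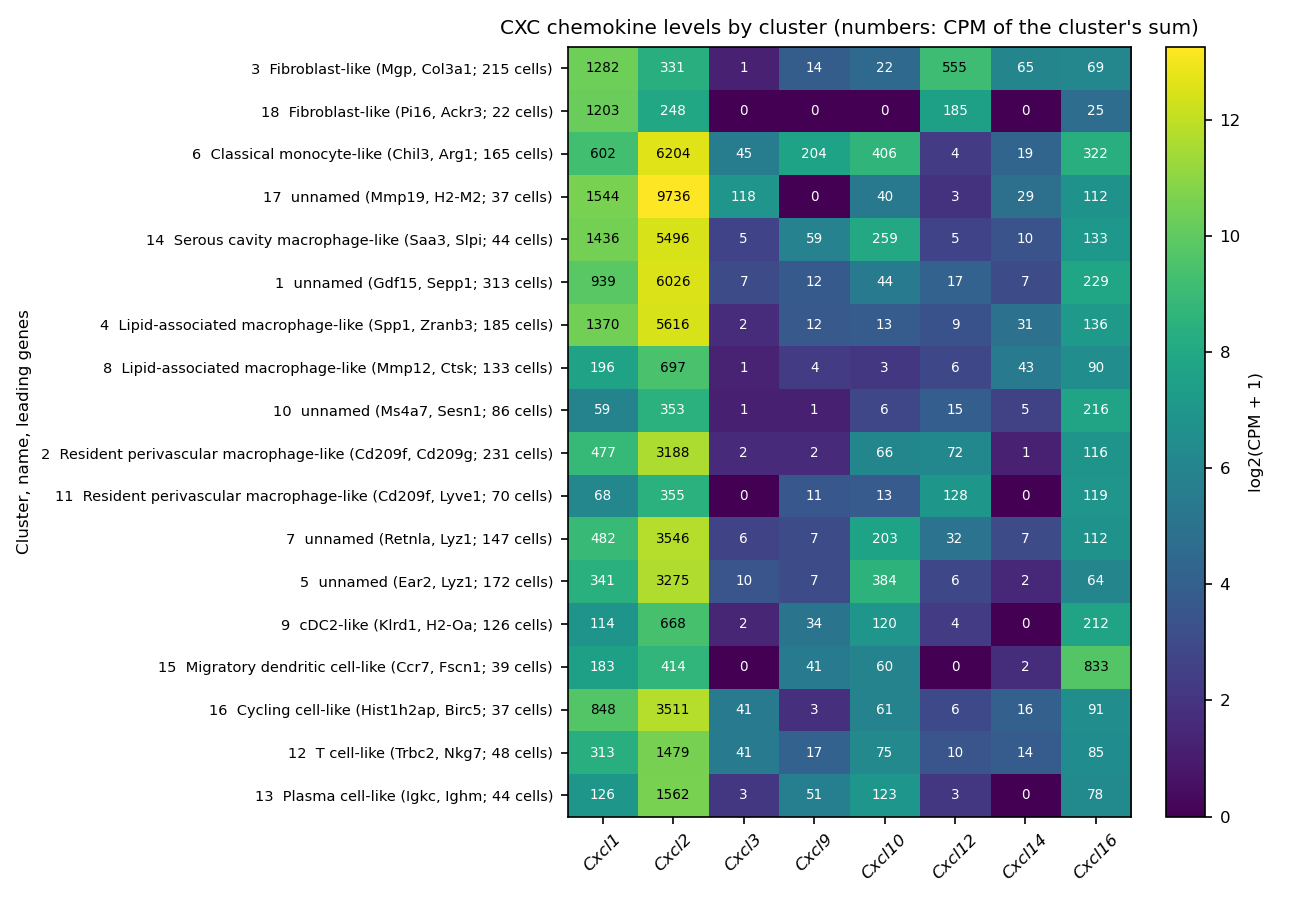
Level of each member (x axis) in each of the 18 clusters (y axis), as the CPM of the cluster's summed UMIs in the cells and as log2(CPM + 1) in colour. Cxcl12 reaches 555 CPM in fibroblast-like cluster 3 and 128 CPM in perivascular-like cluster 11, Cxcl16 833 CPM in cluster 15, and Cxcl2 9736 CPM in cluster 17.

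Clusters were made without the 8 members, and the members' patterns over the 18 clusters are a description, since all clusters come from the same 6 libraries. On the log2(CPM + 1) scale the member pairs with the highest Pearson r were Cxcl2 with Cxcl3 (0.74), Cxcl9 with Cxcl10 (0.62) and Cxcl2 with Cxcl10 (0.60). Among 4907 genes, Cxcl2 was most like Tnf (r = 0.93), which encodes the cytokine TNF, then Rab20 (0.90) and Il10 (0.89), the gene of an anti-inflammatory cytokine. Cxcl1 was most like Tnfaip2 (0.86), a TNF-induced gene, and Cxcl9 most like Serpina3g (0.80) and then Tap2 (0.76), a peptide transporter of antigen presentation. Cxcl12 was most like Gstm5 (0.93), Cxcl10 like Sowahc (0.93), Cxcl16 like Eno3 (0.92) and Cd40 (0.87), Cxcl14 like Zwint (0.81) and the fatty-acid-binding gene Fabp4 (0.80), and Cxcl3 like Pfdn6 (0.80) and the arginase gene Arg1 (0.79).

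The receptors of these ligands were unevenly spread as well. Ackr3, the scavenger of Cxcl12, was at 229 ± 53.7 CPM in HFD and 259 ± 204 CPM in control fibroblasts, and at 1.199 ± 1.09 CPM in HFD and 1.36 ± 0.866 CPM in control myeloid cells (SD, n = 3 each). It was log2 7.45 ± 0.28 higher in fibroblasts (edgeR adjusted p = 7.5e-17). Cxcr4 was lower in fibroblasts (log2 -5.45 ± 0.56, edgeR adjusted p = 1.4e-08), with 57.0 ± 8.87 CPM in HFD and 56.4 ± 5.11 CPM in control myeloid cells and no diet call (log2 -0.08, edgeR adjusted p = 0.68). Cxcr6 stood at 40.5 ± 41.7 CPM in HFD and 64.6 ± 55.7 CPM in control lymphocytes, and Cxcr3 at 24.8 ± 21.8 and 55.4 ± 69.1 CPM. The lymphocyte class had 59 HFD and 56 control cells, of which 12 and 17 were strict lymphocytes. It held much myeloid RNA, with Lyz2 at 7961 CPM. Cxcr2, the receptor of Cxcl1, Cxcl2 and Cxcl3, had 12 UMIs in HFD and 19 in control myeloid cells, and Cxcr1 had 0. Of the 8 receptors listed 4 could be tested over all kept cells, where 32.4% of all genes were called, and 1, Ackr3, was called, higher in HFD (log2 1.59 ± 0.36, edgeR adjusted p = 0.0094), where fibroblasts were also a larger share of the cells, as given above, and the part of that share in the difference was not tested.

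Of the 5 ligand-cleaving enzymes 1 was called higher and 2 lower in HFD myeloid cells, where 13.9% of all genes tested were called higher and 16.6% lower. Dpp4, which clips Cxcl9, Cxcl10 and Cxcl12, fell by 2.00 ± 0.37 on the log2 scale (edgeR adjusted p = 0.0037), with 3.77 ± 1.18 CPM in HFD and 14.1 ± 5.39 CPM in control samples. Adam10 fell by 0.52 ± 0.12 (edgeR adjusted p = 0.011). Mmp2, which cleaves Cxcl12, rose by log2 1.52 ± 0.34 (edgeR adjusted p = 0.0089), with 17.4 ± 6.38 CPM in HFD and 5.32 ± 1.35 CPM in control myeloid cells. Mmp2 stood at 999 ± 84.4 CPM in HFD and 873 ± 419 CPM in control fibroblasts, and the part of the fibroblast RNA described above in its myeloid difference was not tested. Among the other CXC ligands, the platelet factor gene Pf4 fell in myeloid cells by 0.54 ± 0.10 (edgeR adjusted p = 0.0043), Cxcl13 had a difference of log2 -3.12 ± 1.24 that was not called (edgeR adjusted p = 0.086), and Cxcl5, Cxcl15 and Cxcl17 had 0 UMIs.

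Most of the NF-kB response list was lower in HFD myeloid cells. Like the other gene lists here, it was chosen with earlier results of these data known, so its counts are a description and no test. Of its 15 genes 12 were called lower in HFD myeloid cells and none higher, with a median of log2 -0.74, where 16.6% of all genes tested were called lower and 13.9% higher, with a median of -0.02. The myeloid cells of the diets lay in different clusters: cluster 5, with Il6 among its leading genes, was 1.74% ± 0.0202 of HFD and 16.8% ± 1.78 of control myeloid cells, and cluster 7 was 0.335% ± 0.298 and 15.003% ± 1.88 (SD, n = 3 each). The part of these shares in the differences was not tested. Among them the interleukin genes Il6 fell by 5.02 ± 0.20 (edgeR adjusted p = 3.0e-06) and Il1b by 1.35 ± 0.15 (edgeR adjusted p = 0.00043), and the NF-kB regulators Nfkbiz by 0.96 ± 0.13 (edgeR adjusted p = 0.00096) and Rel by 1.14 ± 0.16 (edgeR adjusted p = 0.0011). Tnf, Ccl3 and Ccl4 were not called, at log2 -0.22, -0.21 and -0.38. The members with a kappaB match did not move together in myeloid cells. Cxcl10 was called lower (log2 -1.48 ± 0.42), a call that depended on single libraries. Cxcl3 stood at log2 -1.30 ± 0.50, Cxcl1 at log2 0.35 ± 0.19 and Cxcl2 at log2 0.08 ± 0.11, none of them called.

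Of the 14 interferon response genes tested 4 were called lower in HFD myeloid cells and none higher, with a median of log2 -0.72, against the same 16.6% of all genes called lower. The ubiquitin-like gene Isg15 fell by 2.05 ± 0.27 (edgeR adjusted p = 0.00078), the antiviral genes Rsad2 by 1.56 ± 0.36 (edgeR adjusted p = 0.010) and Ifit1 by 1.36 ± 0.27 (edgeR adjusted p = 0.0053), and the GTPase gene Gbp3 by 1.28 ± 0.27 (edgeR adjusted p = 0.0065). Over the 18 clusters, Cxcl10 had an r of 0.74 with the summed NF-kB list and 0.60 with the summed interferon list, and Cxcl9 had 0.37 and 0.63.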

How the data were processed

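The authors deposited 1 matrix of UMI counts per gene and cell for each of 6 samples (3 HFD, 3 control), with no annotation of the cells. Per the submitters' processing notes, Cell Ranger, Seurat 2.4 and the mm9 build were used, with no role given for each, and the sources used here give no method for calling cells. The labels do not say that samples came from separate animals, so p-values measure the spread between samples, which may be technical.

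Each barcode was kept in the sample where it had most UMIs, and cells needed at least 200 genes and at most 10% mitochondrial UMIs. Lymphocytes were cells below the fibroblast gate with at least 3 UMIs of Cd3d, Cd3e, Cd3g, Cd79a, Cd79b and Ms4a1. No doublet caller was run, and an alternative leaves out fibroblasts with at least 3 UMIs of Tyrobp and Fcer1g. UMIs were summed per sample and class where it had at least 5 cells, and tested with edgeR 4.0.16 (TMM, filterByExpr, quasi-likelihood test, Benjamini-Hochberg threshold 0.05), which was also tested on simulated data. CPM are UMIs of a gene over all UMIs of the class, and ± is the SD for levels and the SE for log2 differences. Shares were compared after thinning to 2000 UMIs, and clusters with fewer than 10 cells in a sample give no level for it. How many of all genes separate the diets without overlap was not counted, so the separations given for members have no background.

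Clusters came from Leiden clustering (leidenalg 0.10.2, resolution 1) on 2000 variable genes and 30 components, without the 8 members. A cluster was named where at least 3 listed markers were raised over 2-fold with a mean log2 difference over 1.2, a threshold chosen after the data were seen, so its names may differ from the study's. Intervals are exact Clopper-Pearson, a count of 0 is given the limit of 3 counts, and both cover counting error only.

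The members and gene lists were chosen with earlier results of these data known. Of the 4 promoter motifs searched 1 is not reported here. The genes named are the members, the up to 4 genes of each list with the smallest p, and the up to 3 genes most like a member over the clusters among those with a mean of at least 20 CPM. Genes listed as not called and the receptors given by level were named after their values were seen, and so were the strict lymphocytes. DESeq2 1.42.0, other normalization, filters and gates, each sample left out, the replicate block and both treatments of shared barcodes were alternatives. The robust fit, sums with at least 1 cell and the fits within 1 diet were added after seeing the data.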

Additional observations from a re-analysis of the deposited data

Results flagged for a closer look

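The diet difference differed between fibroblasts and myeloid cells for 2 members, by a test of the difference itself. For Cxcl12 the log2 difference between HFD and control was 0.76 in fibroblasts and -1.36 in myeloid cells, and the difference of these, fitted in 1 model, was 2.28 ± 0.29 (edgeR adjusted p = 7.2e-12). For Cxcl1 it was -1.12 in fibroblasts and 0.35 in myeloid cells, and the difference was -1.15 ± 0.20 (edgeR adjusted p = 1.3e-06). The Cxcl1 call was lost in DESeq2 (adjusted p = 0.066) and without control 1 (log2 -0.90, edgeR adjusted p = 0.12), while that of Cxcl12 held in both (DESeq2 adjusted p = 0.013). The edgeR fit drew all genes to 1 common spread. The exact permutation test of the per-sample ratios gave a two-sided p of 0.2 for each gene. With 3 against 2 samples this is the smallest p of that test, which doubles the one-sided p. The control side rests on 2 samples with 8 and 9 fibroblasts. Groups of 3 samples were not tested for a sample far from the others.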

How the results depend on the processing

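Of 573 values of a member under an alternative, 509 kept their direction and their side of the threshold, 26 lost a call, 19 gained one and 19 turned in direction, none of these a call. Cxcl12 stayed called over all kept cells (log2 0.61 to 1.84, 14 alternatives), in myeloid cells (-1.67 to -0.81, 17), between classes (2.91 to 5.25, 19) and in the difference of diet differences (1.38 to 3.66, 15). The few control fibroblasts limit every fibroblast result, and the cause of the changes below was not tested.

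Genes called over all kept cells ranged from 2233 to 3333 with 1 sample left out (members 1 to 3), and were 1940 with barcodes of 1 sample only (members 5). In myeloid cells they ranged from 1906 to 2965 (members 1 to 2) and were 1193 with barcodes of 1 sample only (members 5); with no low-count filter 5 members were called. In fibroblasts they ranged from 23 to 114 (members 0 to 1), with 178 with no filter (members 2), 10 with all entries as deposited and 8 at a gate of 3 UMIs; 1 member was called without TMM, at a gate of 12 UMIs and with at least 1 cell per sum. Between classes there were 2417 with barcodes of 1 sample only, on 3 samples, and 1397 within control samples (members 4). For the difference of diet differences they ranged from 68 to 222 (members 1 to 3), with 112 in DESeq2 (members 1) and 78 at a gate of 3 UMIs. At resolution 0.5 the cluster with the highest level had the same name for 5 of 8 members.

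The values that turned were Cxcl2 over all kept cells without TMM (0.073) and with barcodes of 1 sample only (0.28), Cxcl14 in fibroblasts in DESeq2 (0.019) and with no filter (0.18), and, at a gate of 3 UMIs, Cxcl2 (0.88) and Cxcl16 (0.49) in fibroblasts and Cxcl2 (1.14) and Cxcl16 (0.27) in the difference of diet differences. With 1 sample left out, Cxcl2 ran from -0.17 to 0.011 and Cxcl16 from -0.0098 to 0.23 over all kept cells, Cxcl2 from -0.023 to 0.17 and Cxcl9 from -0.13 to 1.49 in myeloid cells, and Cxcl10 from -0.81 to 0.35 and Cxcl14 from -0.78 to 7.49 in fibroblasts. For the difference of diet differences Cxcl9 ran from -4.76 to 3.73 and Cxcl14 from -2.59 to 8.05, the highest without control 1. Where 1 fibroblast sample was left for control, it was assumed to vary like the other group.

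The replicate numbers did not pair the samples: deviations of same-numbered samples correlated at -0.157, -0.0689 and -0.121 over 10450 genes. With the replicate block the genes called were 2416 over all kept cells, 2229 in myeloid cells and 10 in fibroblasts, Cxcl14 in fibroblasts was 0.21, and Cxcl14 in myeloid cells was not called (edgeR adjusted p = 0.052). Barcodes of 1 sample only, and leaving out fibroblasts with myeloid UMIs, could not be fitted for the diet difference in fibroblasts or its difference from that in myeloid cells.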
